A study of Mus musculus with 28 samples.

Results

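Kidneys of mouse embryos that lack Hoxa11 and Hoxd11 were compared with wild type kidneys at embryonic stage E16.5, a point at which nephron progenitors, forming nephrons and the first working tubules lie side by side. The samples were chosen by their labels alone and made up 4 of the 14 samples of the series: 2 null E16.5 kidney samples and 2 wild type E16.5 kidney samples. Each null sample was the kidneys of 1 embryo targeted at both Hoxa11 and Hoxd11, with no strain stated, and each wild type sample was the pooled kidneys of a CD-1 embryo. Replicates were separate embryos. Every sample was hybridised to a 430A and a 430B array, which together hold 45037 probe sets, after 2 rounds of amplification of 30 ng of total RNA. The other 10 samples were null and wild type kidneys at E12.5 and E13.5 and wild type adult kidneys, with 2 in each group.

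Hoxa11 and Hoxd11 are homeobox transcription factors of Hox group 11. In the mouse kidney they act in the mesenchyme around the ureteric bud, where group 11 proteins work with Eya1 and Pax2 to maintain Six2 and Gdnf, and mice that lack both genes have small kidneys with fewer bud branches. Gdnf from the mesenchyme acts on the bud tips through the receptor Ret, the tips in turn hold and induce the Six2-expressing progenitors, and induced progenitors pass through the renal vesicle to become podocytes, proximal tubule, loop of Henle and distal tubule, while stromal, vascular and mural cells fill the space between.

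Signals are the deposited values of each array, given for replicate 1 and then replicate 2. Differences are log2 null over wild type, with the standard error (SE) of a limma fit and a Benjamini-Hochberg adjusted p-value across the probe sets of both designs, and a gene was called at an adjusted p under 0.05. Hoxa11, the targeted gene that the arrays could read, had signals of 211 and 216 in the null kidneys, against 2009 and 1940.0 in wild type, a log2 difference of -3.21 ± 0.29 (adjusted p = 3.04e-05). Both null kidneys lay far below both wild type kidneys. Its antisense transcript Hoxa11os, whose gene overlaps Hoxa11, had 206 and 225 in null, against 678 and 788 in wild type (log2 -1.76 ± 0.29, adjusted p = 0.000658). The Hoxd11 probe set was at 273 and 391 in null and 327 and 372 in wild type kidneys, too dim in all 4 to pass the filter, so it checks nothing. The kidney label matched the markers: the epithelial cadherin Cdh16 gave 26559 and 23784 in null and 14169 and 14365 in wild type kidneys, and Six2, podocalyxin (Podxl) and the phosphate transporter Slc34a1 were all well above the signal floor of 86.1 on 430A, whereas angiotensinogen (Agt) was below it in all 4 samples.

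Several properties of the arrays followed genotype. The null E16.5 arrays were read once on one type of scanner and the other 12 arrays of each design in 2 scans on another type, and the null E16.5 arrays shared no scan day with any other array, and the run records of the null E16.5 430B arrays alone give another version of the array protocol. Scanner, day, 430B protocol and genotype cannot be told apart. On 430A the ratio of the actin probe set at the transcript's 3′ end to that at its 5′ end, which rises as RNA or its copies get shorter, was 2.21 and 1.62 in the null kidneys, against 2.88 and 3.42 in wild type. The 18S ribosomal RNA signal was 7097 and 2205 in null, against 30399 and 25310 in wild type, and the B1 repeat signal was 2198 and 2648 in null, against 6052 and 7882 in wild type. The median signal of 430B was 382 and 426 in null, against 622 and 653 in wild type, while that of 430A was 478 and 477 in null, against 489 and 470 in wild type. The median log2 difference over probe sets was 0.06 on 430A but -0.46 on 430B. The 100 probe sets that both designs carry stood the other way, with a median difference of 0.56 on 430B and 0.19 on 430A, and were 0.42 higher on 430B at the median (SD 0.33 across probe sets). Differences below are therefore most comparable within a design, and 430B is named for many, though not all, of the genes read on it.

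**Figure D1:**
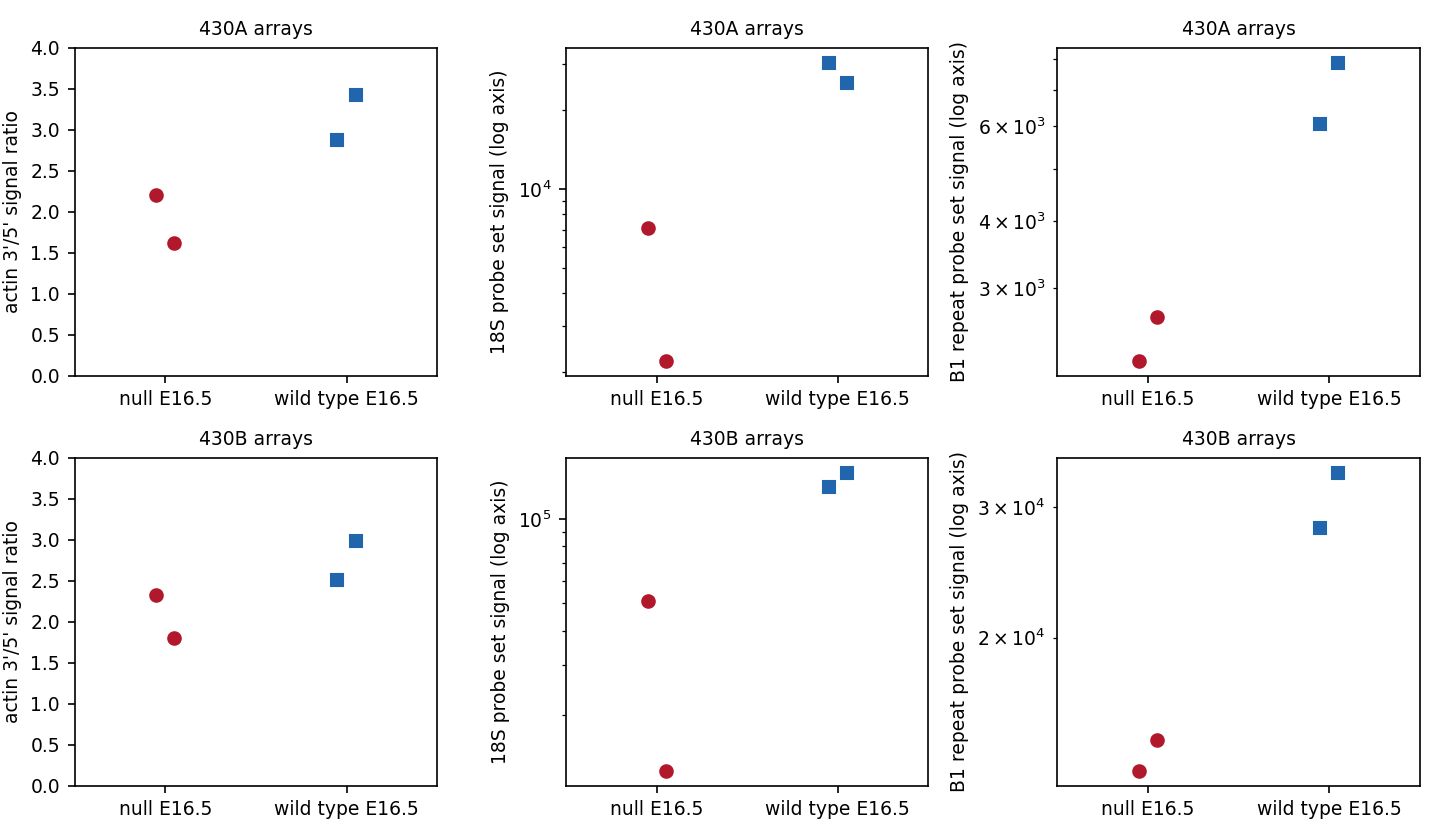
Each point is 1 E16.5 array; null arrays stand left of wild type arrays, and the panels give the 3′ to 5′ actin ratio, the 18S ribosomal RNA signal and the B1 repeat signal (array units, log axes) for 430A above and 430B below. In all 6 panels both null points lie below both wild type points.

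Of 30564 probe sets above the filter, 10728 (35.1%) were called, 4856 higher and 5872 lower in null kidneys, and 9572 of the calls were at least 2-fold. Centring each array on its median turned the split to 6385 higher and 3880 lower. With 1 probe set for each of 14128 genes, 2943 genes (20.8%) were higher and 2135 (15.1%) lower, and the median difference was 0.02. Counting a gene by any of its called probe sets gave 3801 (26.9%) higher and 3286 (23.3%) lower. The probe sets of 1 gene did not always point one way: among 1622 genes with more than 1 called probe set, 364 (22.4%) had calls in both directions, against 8.96% in the same comparison at E12.5 and 9.47% at E13.5. Each gene of the lists below is read by 1 probe set, and 14 of 204 called list genes had another probe set called the opposite way, while 67 of 343 that were not called had another probe set with a call. Where that holds for a gene named below, the call of the other probe set is given with it. Other probe sets that were not called are given for only some genes. These shares are the background for each list of genes below, and 2 embryos a group limit the precision of every value.

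**Figure D2:**
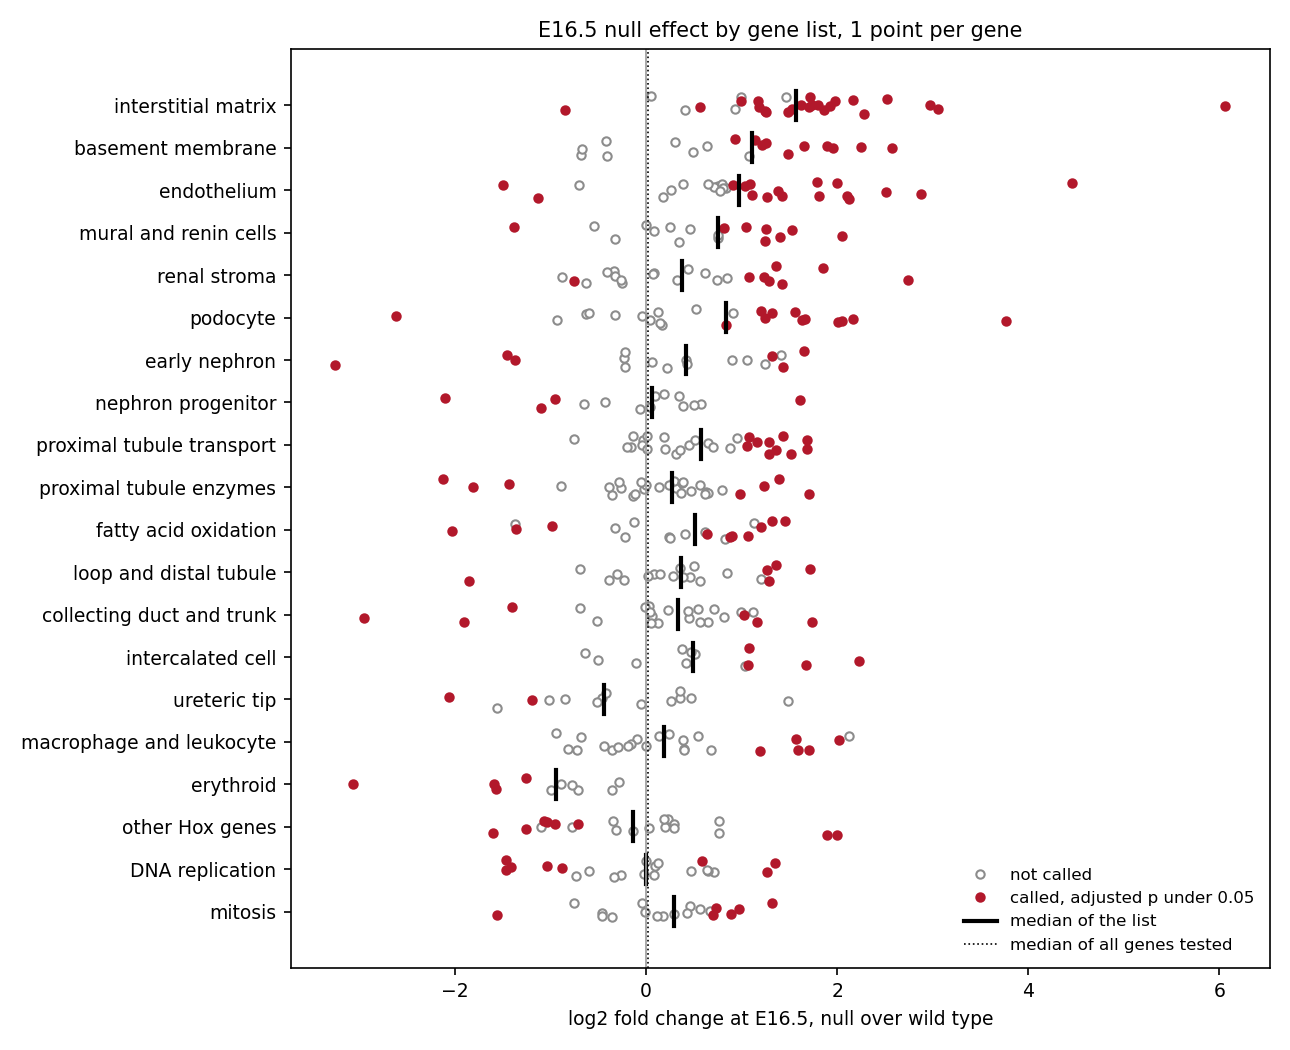
Each row is a gene list; points are its measured genes by log2 null over wild type at E16.5, filled points are called genes, the bar marks the list median and the dotted line the median of all genes. Interstitial matrix, basement membrane and endothelial genes stand to the right of 0, with list medians of 1.57, 1.11 and 0.97, and erythroid genes to the left with -0.94.

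The lists held 655 genes, of which 547 passed the filter, and 145 of those were higher and 59 lower. The counts after leaving out null 1, null 2, wild type 1 and wild type 2 are given in that order. Each such fit leaves 1 embryo in a group, and fewer probe sets were called at E16.5 in every one. A lower count or a lost call is therefore not by itself particular to that list, gene or embryo. In whole kidneys, fewer cells of a type and less RNA per cell cannot be told apart.

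Genes for interstitial matrix made up the list with the highest median. Of 30 listed genes 28 were measured, 22 were higher and 1 was lower in null kidneys, and the median was 1.57 (1.51 after subtracting each design's median). The group covers microfibril and elastic fibre proteins, fibrillar and beaded collagens, and the lysyl oxidases that crosslink them. The counts of higher genes were 18, 14, 18 and 16 with 1 embryo left out. The summed signal of the list was 283237 and 308885 in null kidneys, against 116518 and 107316 in wild type.

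The matrix genes with the largest differences and an entry in the promoter table were Fbln2 (fibulin-2), Col6a1 (a chain of the beaded collagen VI) and Col5a1 (a chain of the fibrillar collagen V). Their promoters, 250 bases before to 50 after the RefSeq start on GRCm38.p6, are shown because these are the matrix genes described first below. Capitals mark the GC-box letters GGGCGG or their reverse complement CCGCCC. Fbln2 lies at chr6:91212514-91212813 (plus strand), Col6a1 at chr10:76725995-76726294 (minus strand) and Col5a1 at chr2:27886175-27886474 (plus strand).
Fbln2: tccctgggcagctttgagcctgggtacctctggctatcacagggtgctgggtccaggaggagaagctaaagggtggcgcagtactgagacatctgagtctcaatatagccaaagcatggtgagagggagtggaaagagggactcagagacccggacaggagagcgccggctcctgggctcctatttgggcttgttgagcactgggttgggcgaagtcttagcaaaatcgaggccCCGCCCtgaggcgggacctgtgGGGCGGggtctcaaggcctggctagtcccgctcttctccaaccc
Col6a1: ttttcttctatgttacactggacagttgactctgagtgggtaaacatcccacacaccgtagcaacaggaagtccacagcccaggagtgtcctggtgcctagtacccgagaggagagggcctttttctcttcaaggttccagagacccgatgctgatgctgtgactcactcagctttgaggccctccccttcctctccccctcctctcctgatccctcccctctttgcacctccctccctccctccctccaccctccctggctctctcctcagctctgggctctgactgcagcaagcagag
Col5a1: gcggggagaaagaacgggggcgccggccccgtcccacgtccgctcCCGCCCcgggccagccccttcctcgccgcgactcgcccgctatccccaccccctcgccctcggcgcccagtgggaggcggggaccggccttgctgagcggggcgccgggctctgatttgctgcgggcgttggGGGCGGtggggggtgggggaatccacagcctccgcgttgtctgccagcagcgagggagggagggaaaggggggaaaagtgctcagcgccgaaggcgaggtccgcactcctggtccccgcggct
On either strand, 35.6% of 27025 RefSeq promoters held GGGCGG, 37.8% held CCAAT and 14.1% held TATAAA. Fbln2 and Col5a1 each held 2 GGGCGG matches, and none of the 3 motifs was found in the Col6a1 window. A match is only a description of these letters.

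Mfap4, a microfibril-associated glycoprotein of elastic fibres, had signals of 4509 and 7331 in null kidneys, against 35.2 and 45.0 in wild type, at least 66.8-fold higher against the signal floor (adjusted p = 5.37e-06). Wild type kidneys gave no signal above the floor, and both null kidneys were bright. Fbln2, whose product links matrix and basement membrane, had 2724 and 5287 in null, against 469 and 444 in wild type (log2 3.06 ± 0.45, adjusted p = 0.000322). Col6a1 had 11982 and 15094 in null, against 1672 and 1751 in wild type (log2 2.97 ± 0.30, adjusted p = 5.78e-05), and its partner chains Col6a2 and Col6a3 rose by 2.28 and 1.97. Col5a1 had 11264 and 13951 in null, against 2339 and 2049 in wild type (log2 2.52 ± 0.31, adjusted p = 0.000127), beside 1.71 for Col5a2. In each of these genes both null kidneys stood above both wild type kidneys.

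The rise was uneven within the list. For collagen I, Col1a2 had 55721 and 47619 in null and 18643 and 17201 in wild type kidneys (log2 1.52 ± 0.24, adjusted p = 0.000512), whereas the list's Col1a1 probe set had 9922 and 10543 in null and 5443 and 4877 in wild type kidneys (log2 0.99 ± 0.44, adjusted p = 0.0945). Another Col1a1 probe set was called higher, with 3871 and 5643 in null, against 343 and 269.9 in wild type (log2 3.94 ± 0.49, adjusted p = 0.000127). Col3a1, the chain of collagen III and among the brightest of the list, rose by only 0.57 ± 0.19 (adjusted p = 0.0347). Among the crosslinking enzymes Loxl1 and Lox rose by 1.87 and 1.24. The small proteoglycans Dcn and Bgn, which bind collagen fibrils, rose by 1.80 and 1.62. Ogn was not called by the list's probe set, at 1207 and 1378 in null and 1276 and 1212 in wild type kidneys, but its other probe set was called higher (log2 1.81). Versican (Vcan), a large proteoglycan, was the 1 gene called lower, at 2361 and 3299 in null, against 6264 and 4034 in wild type (log2 -0.85 ± 0.31, adjusted p = 0.0489). That call was lost without null 1 (adjusted p = 0.264), null 2 (0.0604) or wild type 1 (0.326), and of its other probe sets 1 was called higher (log2 1.26) and 1 on 430B lower (-2.22).

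**Figure D3:**
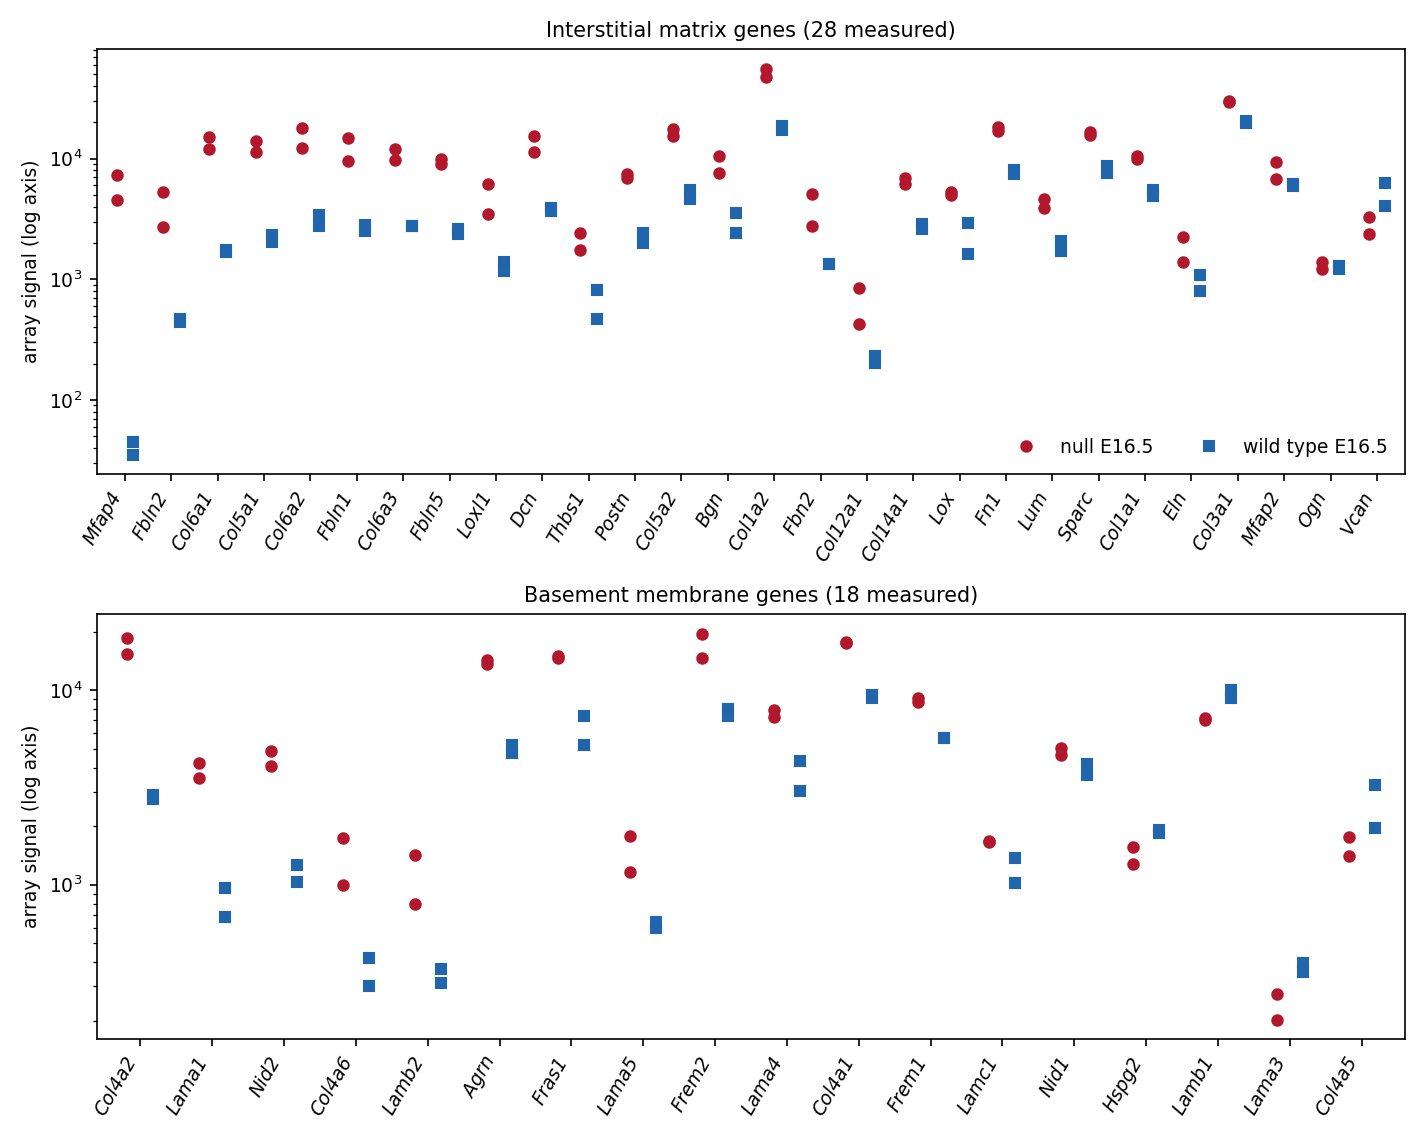
Signals (log axis, array units) of interstitial matrix and basement membrane genes in the 2 null kidneys, drawn left, and the 2 wild type kidneys; each point is 1 sample. Mfap4 separates the groups most, and for Fbln2, Col6a1, Col5a1 and Col4a2 both null points lie above both wild type points.

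Basement membrane genes, which encode the sheet beneath epithelia and vessels, moved the same way. Of 18 measured, 10 were higher and 0 lower, with a median of 1.11, and leaving out 1 embryo gave 8, 9, 9 and 7 higher. Col4a2, a chain of the network collagen IV, had 15287 and 18571 in null kidneys, against 2885 and 2763 in wild type (log2 2.58 ± 0.23, adjusted p = 3.03e-05). Lama1, the laminin chain of early nephron basement membranes, had 3515 and 4208 in null, against 959 and 679.7 in wild type (log2 2.25 ± 0.33, adjusted p = 0.000326). Null and wild type ranges were apart for both. Nid2 and Col4a6 rose by 1.96 and 1.89, and the paired chain Col4a1 by 0.93. Laminin chains Lamb1 and Lamc1 were not called by the list's probe sets, at -0.42 and 0.49. Other Lamb1 probe sets were called in both directions (log2 3.06 on 430A and -2.42 on 430B). The other Lamc1 probe set was called higher, by at least log2 3.20, since both wild type signals were under the floor. For the linker Nid1, the list's probe set gave 0.30 ± 0.46 (adjusted p = 0.634). Another 430A probe set had 1384 and 2251 in null and 87.8 and 51.6 in wild type kidneys (log2 4.34 ± 0.41, adjusted p = 3.75e-05). Wild type 2 was under the floor there, so 4.34 is a lower bound. The size of the Nid1 difference thus depends on the probe set.

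Endothelial genes were higher in 15 of 28 and lower in 2, with a median of 0.97. The counts of higher genes were 12, 10, 9 and 13 with 1 embryo left out, and 10 with the actin ratio as a covariate. Rasip1, needed for the lumen of blood vessels in mice, had 1644 and 2219.6 in null kidneys, against 308 and 221 in wild type (log2 2.87 ± 0.31, adjusted p = 6.70e-05). Pecam1, the junctional adhesion molecule CD31, had 1709 and 1867 in null, against 582 and 287 in wild type (log2 2.13 ± 0.34, adjusted p = 0.000520). Kdr, the main receptor for Vegfa, had 12194 and 12797 in null, against 3503 and 2779 in wild type (log2 2.00 ± 0.30, adjusted p = 0.000400). Null signals exceeded wild type signals for each of these 3 genes. Tie1, an orphan receptor of vessels, rose by 4.46 ± 0.36 and von Willebrand factor (Vwf) by 2.51 ± 0.43. Cdh5, the vascular cadherin, was at 1208 and 1749.9 in null and 945 and 789 in wild type kidneys (log2 0.75 ± 0.30, adjusted p = 0.0665), and Cd34 and Flt1 were not called either. Of the transcription factors, Sox18 rose by 1.78, Erg was at -0.70 and not called, and Ets1 and Sox17 were called lower. Sox17 had 719 and 903 in null, against 2324 and 2212 in wild type (log2 -1.49 ± 0.36, adjusted p = 0.00665), a call lost without null 1 (adjusted p = 0.0504), while its other probe set was called higher (log2 1.29). Ets1 had 3060.1 and 3702 in null, against 7714 and 7019 in wild type (log2 -1.13 ± 0.35, adjusted p = 0.0224) and was lost when any of the 4 embryos was left out, with adjusted p between 0.059 and 0.119.

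Mural and renin cell genes gave 7 higher and 1 lower of 17, with a median of 0.75, but the counts of higher genes were only 4, 2, 1 and 1 with 1 embryo left out, 4 after quantile normalization and 2 with the actin ratio as a covariate. Smtn, the smooth muscle protein smoothelin, was the firmest member, at 1346 and 2058 in null and 433 and 372 in wild type kidneys (log2 2.05 ± 0.35, adjusted p = 0.000828). Acta2, smooth muscle actin, had 21742 and 14316 in null and 11918 and 13908 in wild type kidneys (log2 0.45 ± 0.26, adjusted p = 0.193), with null 2 close to the wild type kidneys. Ace and Agtr1a, of the renin-angiotensin system, were not called by the list's probe sets, although another Ace probe set was called higher (log2 2.38).

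Stromal genes were higher in 7 of 22 and lower in 1, with a median of 0.38 and 8, 4, 5 and 5 higher with 1 embryo left out. Dlk1, an imprinted transmembrane ligand of immature mesenchyme, had 3394 and 12166 in null kidneys, against 1138 and 815 in wild type (log2 2.74 ± 0.48, adjusted p = 0.000906). Both null values exceeded the wild type ones, though null 2 was much brighter than null 1. Cxcl12, a chemokine made by stroma, had 7395 and 10559.7 in null, against 3454 and 3131 in wild type (log2 1.43 ± 0.24, adjusted p = 0.000842). Smoc2, a matrix calcium-binding protein, had 3270.3 and 4937 in null, against 1589 and 1542 in wild type (log2 1.36 ± 0.29, adjusted p = 0.00334). The stromal transcription factor Foxd1 was at 2483 and 5535 in null and 2428 and 2393 in wild type kidneys (log2 0.62 ± 0.33, adjusted p = 0.155): null 2 was high and null 1 sat with the wild type kidneys. Meis1, Pdgfra and Pdgfrb, which mark the stromal lineage, were not called by the list's probe sets, at -0.34, 0.08 and 0.44. Another probe set of each was called, with log2 differences of -2.57 for Meis1 (430B), 1.68 for Pdgfra and 3.18 for Pdgfrb. Aldh1a2, which makes retinoic acid, was called lower at -0.75, a call lost without null 1 (adjusted p = 0.0865), null 2 (0.0621) or wild type 1 (0.145).

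In the nephron progenitor list 1 gene was higher and 3 lower of 14, with a median of 0.07. With 1 embryo left out 1, 0, 2 and 0 were higher and 2, 3, 2 and 2 lower. Eya1, the cofactor with which group 11 Hox proteins act, had 3978 and 1788 in null kidneys on 430B, against 15341 and 8618 in wild type (log2 -2.11 ± 0.43, adjusted p = 0.00220). Gdnf, the ligand of Ret, had 991 and 1075 in null, against 2345 and 2075 in wild type (log2 -1.10 ± 0.25, adjusted p = 0.00459). Wild type kidneys exceeded null kidneys for both genes, without overlap. Six2, which keeps progenitors from differentiating, had 569.8 and 1014 in null, against 1611 and 1336 in wild type (log2 -0.95 ± 0.30, adjusted p = 0.0254). The groups did not overlap, yet the Six2 call was lost without null 1 (adjusted p = 0.233), wild type 1 (0.146) or wild type 2 (0.0593). Cited1, which marks uninduced progenitors, was not called, at 416 and 644 in null and 499 and 472 in wild type kidneys (log2 0.09 ± 0.59), and Wt1 was not called at -0.65 ± 0.38 (adjusted p = 0.204). Sall1, a zinc-finger factor of the cap mesenchyme, was the 1 gene called higher, by 1.61 ± 0.48 (adjusted p = 0.0190). Its call was lost without null 2 (adjusted p = 0.128) or wild type 2 (0.237), and its 430B probe set was called lower (log2 -1.72).

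Early nephron genes, of the renal vesicle and the bodies that follow it, gave 3 higher and 3 lower of 17, with a median of 0.42, and 3, 2, 4 and 2 higher and 2, 2, 3 and 2 lower with 1 embryo left out. In the full fit both shares were near those of all genes, 20.8% higher and 15.1% lower. Of the 3 that fell, Hes5 and Lfng belong to the Notch pathway, which patterns the forming nephron. Hes5, a Notch target, had 142 and 122 in null kidneys, against 797 and 1979 in wild type (log2 -3.25 ± 0.68, adjusted p = 0.00270). Lfng, which modifies Notch receptors, had 243 and 201 in null, against 583 and 633 in wild type (log2 -1.46 ± 0.30, adjusted p = 0.00269). For both, each null kidney was below each wild type kidney. The third, the Wnt inhibitor Dkk1, had 687 and 712 in null, against 1702 and 1924 in wild type (log2 -1.37 ± 0.37, adjusted p = 0.0125), a call lost without null 1 (adjusted p = 0.0577), null 2 (0.0546) or wild type 2 (0.0746). The ligands Jag1 and Dll1 and the target Hey1 were not called, at 0.90, 0.22 and -0.22. Of the genes that rose, Sfrp2, a secreted Wnt modulator, had 8009 and 11182 in null, against 2926 and 3116 in wild type (log2 1.65 ± 0.30, adjusted p = 0.00113), and Pax8, a transcription factor of induced mesenchyme, had 2691 and 3184 in null, against 1094 and 1079.7 in wild type (log2 1.43 ± 0.27, adjusted p = 0.00167). Null signals were higher without overlap in both. Wnt4 and Lhx1, which drive vesicle formation, were not called (log2 0.43 ± 0.45 and 1.25 ± 0.61).

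Podocyte genes, of the filtering cells of the glomerulus, were higher in 11 of 23 and lower in 1, with a median of 0.84 and 9, 8, 8 and 8 higher with 1 embryo left out. Nphs1, nephrin of the slit diaphragm, had 1664 and 1620.1 in null kidneys, against 387 and 345 in wild type (log2 2.17 ± 0.36, adjusted p = 0.000722). Ptpro, a phosphatase of the podocyte surface, had 6830.4 and 5752 in null, against 1649 and 1388 in wild type (log2 2.05 ± 0.29, adjusted p = 0.000292). Null kidneys exceeded wild type kidneys for both. Podxl, the charged coat protein, had 23571 and 17110.2 in null, against 5817 and 4281 in wild type (log2 2.01 ± 0.31, adjusted p = 0.000468), but its other probe set was called lower (log2 -1.52). The transcription factors did not move together: Foxc1 rose by 1.24 (adjusted p = 0.00584), while Foxc2, Tcf21 and Lmx1b were not called, at -0.04, 0.13 and 0.91. Synpo, of the podocyte cytoskeleton, and Vegfa were not called by the list's probe sets, and the other Vegfa probe set was called higher (log2 1.62). Robo2, the Slit2 receptor, fell on 430B, with 76.6 and 245 in null, against 1492 and 913 in wild type (log2 -2.61 ± 0.61, adjusted p = 0.00527), and the call was lost without wild type 1. Null 1 was under the 430B floor of 148.1, so the size of the Robo2 fall is a bound.

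**Figure D4:**
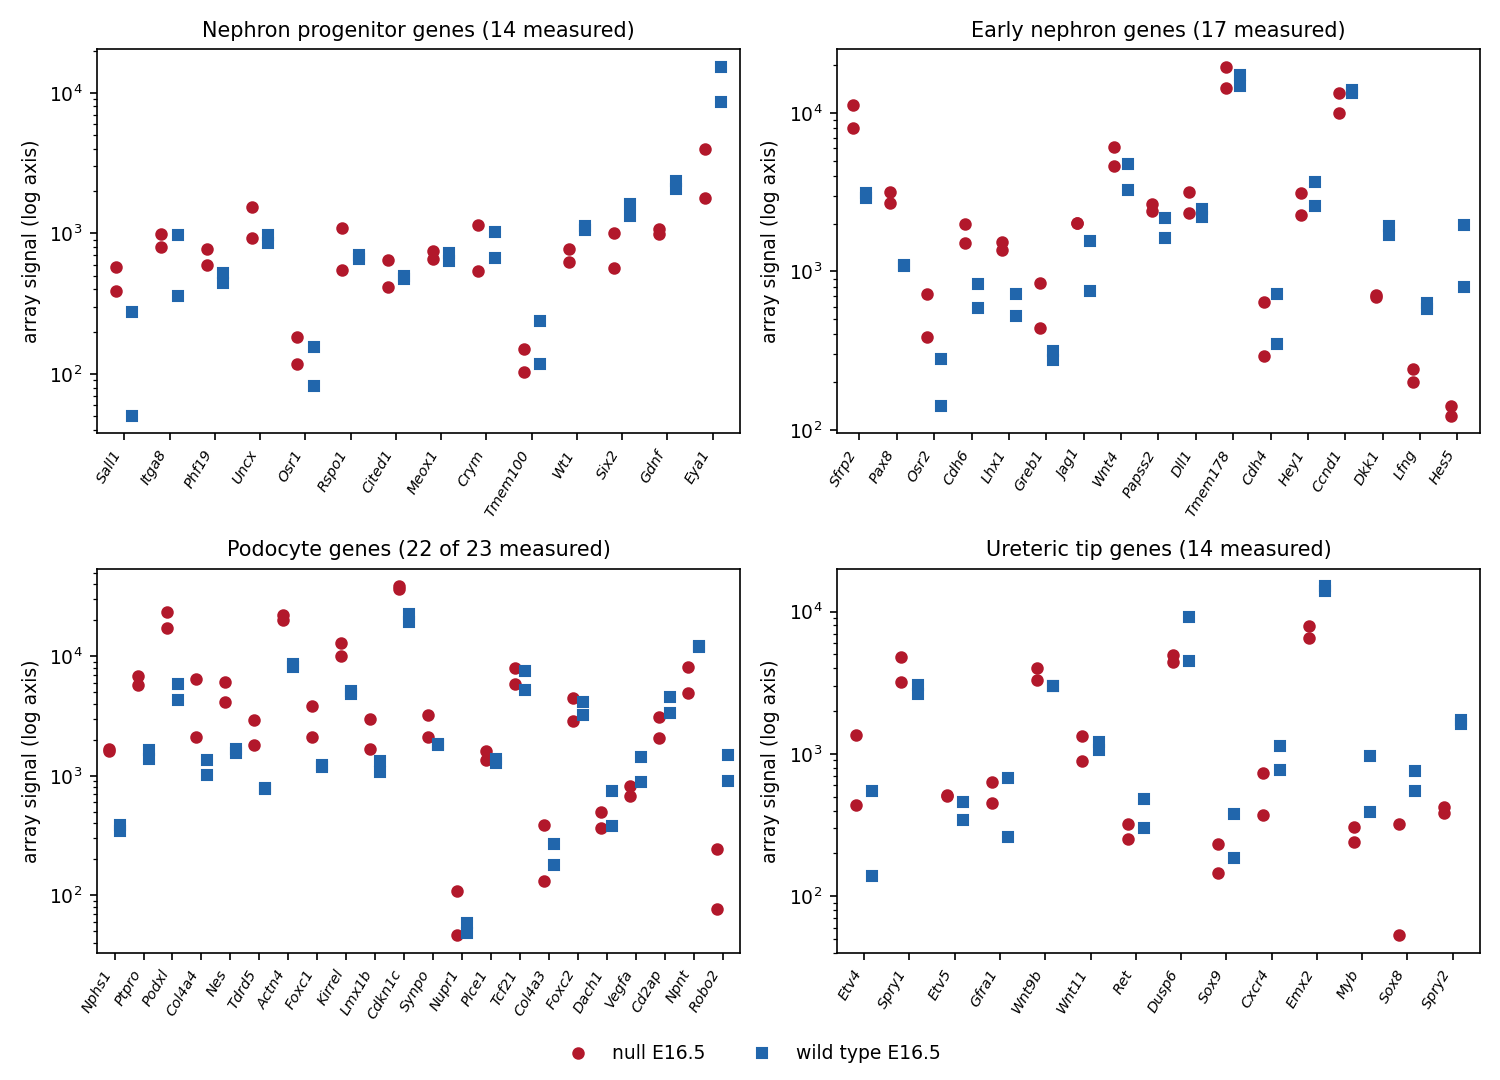
Signals (log axis, array units) of nephron progenitor, early nephron, podocyte and ureteric tip genes in the 2 null kidneys, drawn left, and the 2 wild type kidneys; each point is 1 sample, and 1 measured podocyte gene is not drawn. Sfrp2, Nphs1 and Ptpro are higher, and Eya1, Hes5 and Spry2 lower, in both null kidneys than in either wild type kidney.

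Proximal tubule transport genes were higher in 10 of 28 and lower in 0, with a median of 0.58. The count depended on the embryo left out, with 2, 13, 4 and 4 higher, and was 5 with the actin covariate. Slc34a1, the main phosphate transporter, had 10541 and 6805 in null kidneys, against 3253 and 2687 in wild type (log2 1.52 ± 0.29, adjusted p = 0.00179). Slc22a6, an organic anion transporter, had 3476 and 2209 in null, against 774 and 966 in wild type (log2 1.68 ± 0.37, adjusted p = 0.00365). In both genes null 1 was brighter than null 2 and each exceeded wild type. That gap between the null embryos recurred down the list. Slc17a3, a phosphate and urate transporter, had 4726 and 1141 in null, against 1622 and 1773 in wild type, and the glucose transporter Slc5a2 had 3176 and 1007 in null, against 1173 and 1118 in wild type, so null 1 was high and null 2 was close to or below wild type. Neither was called. Cubn, the cubilin receptor of protein uptake, had 5351 and 2039 in null, against 1226 and 1212 in wild type (log2 1.44 ± 0.44, adjusted p = 0.0212), a call lost without null 1 (adjusted p = 0.236), wild type 1 (0.0881) or wild type 2 (0.0876). Its partner Lrp2 was not called by the list's probe set, at 0.88 ± 0.48, while its other probe sets were called higher on 430A (log2 2.37) and lower on 430B (-1.31).

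Proximal tubule enzymes were mixed, with 4 higher and 3 lower of 30 and a median of 0.27, and 3, 4, 2 and 3 higher and 3, 2, 2 and 2 lower with 1 embryo left out. Both shares in the full fit were below those of all genes, 20.8% higher and 15.1% lower. Xpnpep2, a brush border peptidase, had 1021 and 1107 in null kidneys, against 336 and 319 in wild type (log2 1.70 ± 0.38, adjusted p = 0.00395). Gpx3, the secreted glutathione peroxidase, had 3414 and 2208 in null, against 983 and 1120.0 in wild type (log2 1.39 ± 0.28, adjusted p = 0.00241). Kap, an androgen-regulated protein of mouse proximal tubule, moved the other way, with 551 and 469 in null, against 1619 and 1954 in wild type (log2 -1.81 ± 0.26, adjusted p = 0.000291). The groups were apart in all 3, though the other Kap probe set was not called, at -0.51 ± 0.34 (adjusted p = 0.267). Sult1d1, a sulfotransferase, was also lower, with 1738 and 475 in null, against 3957 and 3977 in wild type (log2 -2.13 ± 0.45, adjusted p = 0.00301). That call was lost when only the 4 E16.5 samples entered the fit (adjusted p = 0.0513).

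Tubule transcription factors gave 1 higher and 2 lower of 17, with a median of 0.00, and 0, 0, 1 and 1 higher and 1, 1, 1 and 2 lower with 1 embryo left out. These shares were below the 20.8% higher and 15.1% lower of all genes in the full fit. Maf, a bZIP factor, fell on 430B to 2928 and 2235 in null kidneys, against 16417 and 10051 in wild type (log2 -2.33 ± 0.35, adjusted p = 0.000374), without overlap. The other Maf probe sets, also on 430B, were not called, at -0.54, 0.77, -0.98 and -0.85. Hnf4a, which drives the proximal programme in mice, was at 11464 and 9744 in null and 3926 and 4374 in wild type kidneys (log2 1.35 ± 0.55, adjusted p = 0.0701): both null kidneys were higher, but the test was not passed. Another Hnf4a probe set was called higher (log2 2.45, adjusted p = 0.000499).

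Fatty acid oxidation, the main fuel use of the mature proximal tubule, had 7 genes higher and 3 lower of 20, with a median of 0.51 and 4, 3, 3 and 3 higher with 1 embryo left out. Cpt2, of the mitochondrial carnitine shuttle, had 6372 and 5316 in null kidneys, against 2284 and 1973 in wild type (log2 1.45 ± 0.31, adjusted p = 0.00335), with no overlap. The other Cpt2 probe set was not called, at -0.45 ± 0.29 (adjusted p = 0.248). Cpt1a, the step before Cpt2, rose by 1.32 by the list's probe set, but 2 other Cpt1a probe sets were called lower (log2 -1.58 and -1.66). Catalase (Cat), the peroxisomal enzyme, fell to 1922 and 1814 in null kidneys, against 7022 and 8249 in wild type (log2 -2.03 ± 0.27, adjusted p = 0.000209). The other Cat probe set, also on 430A, was not called, at -0.18 ± 0.25 (adjusted p = 0.597). Another peroxisomal gene, Acaa1a, was also called lower, at -0.99, a call lost without null 1 (adjusted p = 0.112) or wild type 2 (0.111).

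Loop and distal tubule genes gave 4 higher and 1 lower of 20, with a median of 0.37 and 3, 3, 3 and 3 higher with 1 embryo left out. In the full fit the share of higher genes was near the 20.8% of all genes. Egf, made in the thick limb and distal tubule, had 646 and 488 in null kidneys, against 253 and 217 in wild type (log2 1.26 ± 0.28, adjusted p = 0.00412). Umod, uromodulin of the thick limb, had 6766 and 4431 in null, against 2281 and 2221 in wild type (log2 1.28 ± 0.30, adjusted p = 0.00587), and its call was lost without null 1 (adjusted p = 0.0617). Null kidneys exceeded wild type kidneys for both genes. Pvalb, a calcium-binding protein of the distal tubule, fell to 68.7 and 23.0 in null, against 258 and 375 in wild type (adjusted p = 0.00114). Both null values were under the floor, and a floor at the 40th percentile ended this call (adjusted p = 0.537).

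On the ureteric side, tip genes gave 0 higher and 2 lower of 14, with a median of -0.44, and 1, 1, 1 and 2 lower with 1 embryo left out. The share of lower tip genes in the full fit was near the 15.1% of all genes. Spry2, an inhibitor of receptor tyrosine kinase signalling, had 423 and 382 in null kidneys, against 1624 and 1726 in wild type (log2 -2.06 ± 0.28, adjusted p = 0.000215), with all null values below all wild type values. Ret, the Gdnf receptor, was at 323 and 254 in null and 482 and 302 in wild type kidneys (log2 -0.42 ± 0.33, adjusted p = 0.345), while its 430B probe set was called lower (log2 -1.41, adjusted p = 0.00676). Etv4, a target of Ret signalling, was not called at 1.48 ± 0.67, with wide spread in both groups. The other gene called lower, Myb, lost its call without null 1 (adjusted p = 0.0812), null 2 (0.189) or wild type 1 (0.409).

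The collecting duct trunk list was split, with 3 higher and 3 lower of 24 and a median of 0.33, and 1, 1, 1 and 1 were higher and 3, 2, 2 and 3 lower with 1 embryo left out. Shares of called trunk genes in the full fit were below those of all genes, 20.8% higher and 15.1% lower. Calb1, calbindin, the usual label of the ureteric tree, had 1876 and 1098 in null kidneys, against 12289.7 and 10026 in wild type (log2 -2.95 ± 0.30, adjusted p = 5.78e-05), and all 3 of its called probe sets were lower. Krt19, a simple-epithelial keratin, had 3814 and 3069 in null, against 934 and 1132 in wild type (log2 1.73 ± 0.31, adjusted p = 0.00102). Each separated the groups, in opposite directions. Aqp3, a basolateral water channel, was called lower by the list's probe set, at -1.90 ± 0.32, and by another (log2 -1.59), but another on 430A was called higher (log2 2.72). Aqp2 and Gata3 were not called. Urothelial and ureter genes gave 0 higher and 1 lower of 9.

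Of 12 intercalated cell genes, of the acid-base cells of the collecting duct, 4 were higher and 0 lower, with a median of 0.49 and 1, 2, 1 and 3 higher with 1 embryo left out. Rhcg, an ammonia channel, had 1633 and 1232 in null kidneys, against 533 and 372 in wild type (log2 1.67 ± 0.37, adjusted p = 0.00397). Slc4a9, a bicarbonate transporter on 430B, had 3758 and 3643 in null, against 666 and 929.9 in wild type (log2 2.23 ± 0.66, adjusted p = 0.0184). Both genes were higher in each null kidney, but the Slc4a9 call was lost when any of the 4 embryos was left out, with adjusted p between 0.055 and 0.114.

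Among the other Hox genes 2 were higher and 6 lower of 21, with a median of -0.13. The counts of lower genes were 1, 5, 2 and 2 with 1 embryo left out and 3 with the actin covariate. Hoxc10, of the neighbouring group 10, had 35657 and 33846 in null kidneys on 430B, against 7375 and 10302 in wild type (log2 1.99 ± 0.33, adjusted p = 0.000708). Hoxc5, also on 430B, had 2271 and 4784 in null, against 733 and 1076 in wild type (log2 1.89 ± 0.40, adjusted p = 0.00305). These were the 2 that rose, with null above wild type in every sample. Hoxb5 had 650.2 and 974 in null, against 1737 and 2096 in wild type (log2 -1.26 ± 0.27, adjusted p = 0.00346), with null below wild type. Of the neighbours of the deleted genes in their clusters, Hoxa10 was at -1.04, Hoxa9 at -0.77 (not called), Hoxd10 at -0.95 and Hoxd9 at -0.71. The Hoxa10 call was lost without null 1 (adjusted p = 0.113), wild type 1 (0.0805) or wild type 2 (0.0874).

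Wnt, BMP and FGF signalling genes gave 6 higher and 1 lower of 20, with a median of 0.11 and 4, 2, 2 and 2 higher with 1 embryo left out. Bmp4, which restrains budding from the mesenchyme around the duct, had 1779 and 3273 in null kidneys, against 641 and 795 in wild type (log2 1.76 ± 0.35, adjusted p = 0.00199), with null above wild type. Bmp7, a survival signal of the progenitors, rose by 0.90. Rspo3, an enhancer of Wnt signalling, fell on 430B to 2229 and 2132 in null, against 6708 and 5651 in wild type (log2 -1.50 ± 0.31, adjusted p = 0.00258), and median centring moved it to -0.84 and ended the call (adjusted p = 0.0581).

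Imprinted and oncofetal growth genes gave 4 higher and 2 lower of 15, with 4, 1, 2 and 3 higher with 1 embryo left out. Igf2r, the receptor that clears Igf2, had 8322 and 7836 in null kidneys, against 3743 and 3022 in wild type (log2 1.26 ± 0.24, adjusted p = 0.00164), without overlap. Meg3, the maternally expressed RNA of the Dlk1 domain, had 2455 and 8567 in null, against 1001 and 1278 in wild type (log2 2.02 ± 0.46, adjusted p = 0.00474). Like Dlk1 it was far brighter in null 2 than in null 1, and its call was lost without null 2 (adjusted p = 0.0608).

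By any called probe set, 12 of 21 DNA replication genes had a lower call and 5 a higher call, 2 of them both. Over all genes these shares were 23.3% and 26.9%. Of 19 mitosis genes 3 had a lower call and 6 a higher call. Read by 1 probe set a gene, cell cycle genes showed no common direction. DNA replication genes gave 3 higher and 5 lower of 21 (median 0.00, with 4, 3, 3 and 3 lower with 1 embryo left out), and mitosis genes 5 higher and 1 lower of 19 (median 0.29, with 2, 2, 3 and 2 higher with 1 embryo left out). Of the replicative helicase, Mcm5 had 7072 and 9437 in null kidneys, against 3712 and 2765 in wild type (log2 1.35 ± 0.25, adjusted p = 0.00136), while Mcm3 was not called by the list's probe set, at 0.00. Other Mcm3 probe sets were called in both directions (log2 1.08, 2.17 and -2.21). Mcm6 rose by 1.27 by the list's probe set, but another was called lower (log2 -1.38). Orc6, Pola1 and Rfc4, of origin recognition, priming and clamp loading, were lower, with log2 differences of -1.46 ± 0.27, -1.47 ± 0.33 and -1.41 ± 0.26. In mitosis the kinesin Cenpe (430B) rose by 1.32 ± 0.29 and Nusap1, a spindle protein, was lower (log2 -1.56 ± 0.32).

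Markers of other tissues and cells gave small lists. Erythroid genes gave 0 higher and 4 lower of 10, with a median of -0.94, and 2, 3, 3 and 2 lower with 1 embryo left out, and their summed signal was 12438 and 14687 in null kidneys, against 31873 and 38029 in wild type. Hbb-y, an embryonic globin, had 1195 and 2853 in null, against 13787 and 17454 in wild type (log2 -3.07 ± 0.32, adjusted p = 6.16e-05), and all 3 of its probe sets were lower. Macrophage and leukocyte genes gave 5 higher and 0 lower of 24, with 4, 1, 2 and 3 higher with 1 embryo left out and a summed signal of 18514 and 21531 in null, against 14912 and 15922 in wild type. The share of higher macrophage and leukocyte genes in the full fit was near the 20.8% of all genes. Csf1r, the macrophage growth factor receptor, had 5959 and 7296 in null, against 2216 and 2220.4 in wild type (log2 1.57 ± 0.24, adjusted p = 0.000392), while the pan-leukocyte gene Ptprc was at -0.82 and not called. Neural, muscle and cartilage, and adrenal and gonad lists had 9, 8 and 7 measured genes, with 1 higher and 2 lower in each. With 1 embryo left out their lower genes numbered 2, 1, 0 and 2 for neural, 0, 0, 0 and 0 for muscle and cartilage, and 1, 2, 1 and 2 for adrenal and gonad genes. Summed signals of these lists were 2929 and 2077, 3219 and 3572, and 7428 and 5238 in null kidneys, against 2822 and 2653, 5518 and 5198, and 17927 and 19345 in wild type. The part of these cells in the differences above was not tested.

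Stress and injury lists had few calls, with 2 higher and 1 lower of 16 immediate early and heat shock genes, 4 and 1 of 15 tubule injury genes, and 2 and 2 of 17 hypoxia and glycolysis genes. With 1 embryo left out, 1, 0, 0 and 2 stress genes, 2, 1, 2 and 2 injury genes, and 1, 1, 1 and 1 hypoxia genes were higher. Clu, clusterin, rose by 1.29 ± 0.28 and Bnip3 and Higd1a, targets of hypoxia signalling, were lower (log2 -1.48 ± 0.30 and -1.91 ± 0.27; adjusted p = 0.00379, 0.00225 and 0.000265).

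The largest differences over all genes lay mostly outside the lists above. The 15 largest rises ran from 4.09 for Prdm11 (430B) to 6.06 for Mfap4, and 8 of the 15 were on 430A. Sirt2, a deacetylase, had 2120.3 and 2513 in null kidneys, against 66.1 and 82.7 in wild type, at least 26.8-fold higher (adjusted p = 1.89e-06). Ager, a receptor for glycated proteins on 430B, had 4813 and 5351 in null, against 43.2 and 55.8 in wild type, at least 34.3-fold higher (adjusted p = 0.000107). In both, wild type signals were under the floor. Of 14 other probe sets of these 15 genes, 4 were also called higher, 10 were not called and 0 were called lower. The 15 largest falls ran from -3.97 for Taf1d to -5.94 for Xist, and 11 were on 430B. Setd3, a histidine methyltransferase, had 271 and 918 in null, against 20852 and 17663 in wild type (log2 -5.27 ± 0.51, adjusted p = 3.65e-05), whereas its 430A probe set was called higher (log2 1.202, adjusted p = 0.00172). Of 34 other probe sets of these 15 genes, 9 were also called lower, 22 were not called and 3 were called higher.

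Xist, the RNA that silences an X chromosome in females, had 281 and 123 in null kidneys, against 14121 and 9191 in wild type (log2 -5.94 ± 1.08, adjusted p = 0.00123), while the Y-linked Eif2s3y had 469.9 and 342 in null, against 462 and 1451 in wild type and was not called. Both null samples were low for Xist and both wild type samples high, and the labels give no sex, so a difference in sex and genotype cannot be told apart in these samples.

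Other genes were picked for at least 2 called probe sets that did not overlap between the groups and all pointed the same way. Among those higher, Ntrk3, a neurotrophin receptor (430B), had 8694 and 7474 in null kidneys, against 753 and 968 in wild type (log2 3.24 ± 0.33, adjusted p = 4.93e-05). Bmp1, the protease that trims procollagens, had 4138 and 6721 in null, against 823 and 818 in wild type (log2 2.68 ± 0.32, adjusted p = 0.000103). As that choice required, both separated the groups, and so did Sardh (2.81), Hdac7 (2.43), Plcd1 (2.33) and Dlk1. Other Ntrk3 probe sets were not called, at 1.00 and -0.63. Among those lower, Defb1, a tubular antimicrobial peptide, had 815 and 244 in null, against 4178 and 6369 in wild type (log2 -3.53 ± 0.48, adjusted p = 0.000210). Tcf4, a helix-loop-helix factor, had 310.2 and 194 in null, against 2638 and 1909 in wild type (log2 -3.20 ± 0.31, adjusted p = 3.80e-05), and Bcl2, which protects kidney progenitors from cell death in mice, fell on 430B to 467 and 831 in null, against 4538 and 4557 in wild type (log2 -2.87 ± 0.52, adjusted p = 0.00116). For these 3, null was below wild type in every sample, again by the choice. Of 5 Tcf4 probe sets 2 were called lower, and the others were not called, at -0.91, 0.42 and 0.32. Of 5 Bcl2 probe sets 2 were called lower, and the others were not called, at 0.42, 0.13 and 0.25.

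The E12.5 and E13.5 kidneys, which share no sample with the E16.5 comparison, give the same contrast earlier in development. Array measures followed genotype there too. On 430A the actin ratio was 2.27 and 1.28 in null, against 4.13 and 3.23 in wild type, at E12.5. At E13.5 it was 1.26 and 1.64, against 3.99 and 3.12. On 430A the 18S and B1 signals were lower in both null samples at E13.5 and overlapped at E12.5. Null and wild type arrays of the same stage shared no scan day. The null effect at E16.5 was set against the mean of the null effects at E12.5 and E13.5 in the same fit, and that difference was called for 6218 probe sets (20.3%), 2147 higher and 4071 lower. By gene, 1270 (8.99%) were higher and 1121 (7.93%) lower. These signals were not renormalized. The 430A median signal was 539 and 538 in null, against 384 and 393 in wild type, at E12.5. At E13.5 it was 543 and 525, against 416 and 437. Centring each array on its median raised the number of higher calls for the difference. The median null effect of matrix genes was 1.01 at E12.5, 1.17 at E13.5 and 1.57 at E16.5, and 5 of 28 passed the test of a larger effect at E16.5, with 1 smaller. Fbln2 was at 2.47, 2.34 and 3.06 in that order of stage, a difference of 0.65 ± 0.55 that was not called. Mfap4 was at 0.59, 0.04 and 6.06, a called difference of 5.74 ± 0.47 (adjusted p = 1.76e-05).

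Medians of other lists also differed by stage, without a test of the median. Stromal genes had median null effects of 1.17 at E12.5, 1.30 at E13.5 and 0.38 at E16.5, and 7 of 22 were called smaller at E16.5 against 1 larger. Nr2f2, a nuclear receptor of stroma, was at 2.71, 3.08 and -0.32, a difference of -3.22 ± 0.47 (adjusted p = 0.000642). That probe set was not called at E16.5 alone, and 2 other Nr2f2 probe sets were called lower (log2 -1.87 on 430A and -2.33 on 430B). Endothelial medians were 1.53, 1.25 and 0.97, with 3 larger and 6 smaller at E16.5. Proximal transport medians were 0.11, -0.04 and 0.58, with 6 larger and 1 smaller, among them Slc34a1 at 0.40, -0.48 and 1.52 (difference 1.56 ± 0.36, adjusted p = 0.00905). Among progenitor genes, Cited1 was at -3.05, -3.52 and 0.09 (difference 3.38 ± 0.72, adjusted p = 0.00567), whereas Eya1 was at -1.48, -1.44 and -2.11 (difference -0.65 ± 0.52, not called). Nphs1, which was 0.21 and -0.23 at the early stages and 2.17 at E16.5, differed by 2.18 ± 0.44 (adjusted p = 0.00444). The scanner differed between the E16.5 null arrays and all others, so stage and scanner cannot be told apart in these differences. The part of the higher 430A median signal of the early null arrays in these differences was not tested.

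Some of the largest stage differences changed sign. Golt1b, of Golgi transport, had null effects of -0.13 at E12.5, -2.47 at E13.5 and 3.77 at E16.5 (difference 5.06 ± 0.55, adjusted p = 0.000102), but its other probe set was called lower at E16.5 (log2 -1.06, adjusted p = 0.0257). Epha7, an ephrin receptor, was at 4.05, 3.96 and -2.40 (difference -6.41 ± 0.48, adjusted p = 9.08e-06), and Zfhx3, a homeodomain factor, at 3.68, 4.24 and -2.39 (difference -6.35 ± 0.45, adjusted p = 7.75e-06). Both stood well above wild type in the earlier null kidneys and below it at E16.5. For Mbnl2, Kdm6b and Dyrk2 the E16.5 effect alone was not called, at -0.75, -0.92 and -1.25, although another Dyrk2 probe set was called lower (log2 -1.70).

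**Figure D5:**
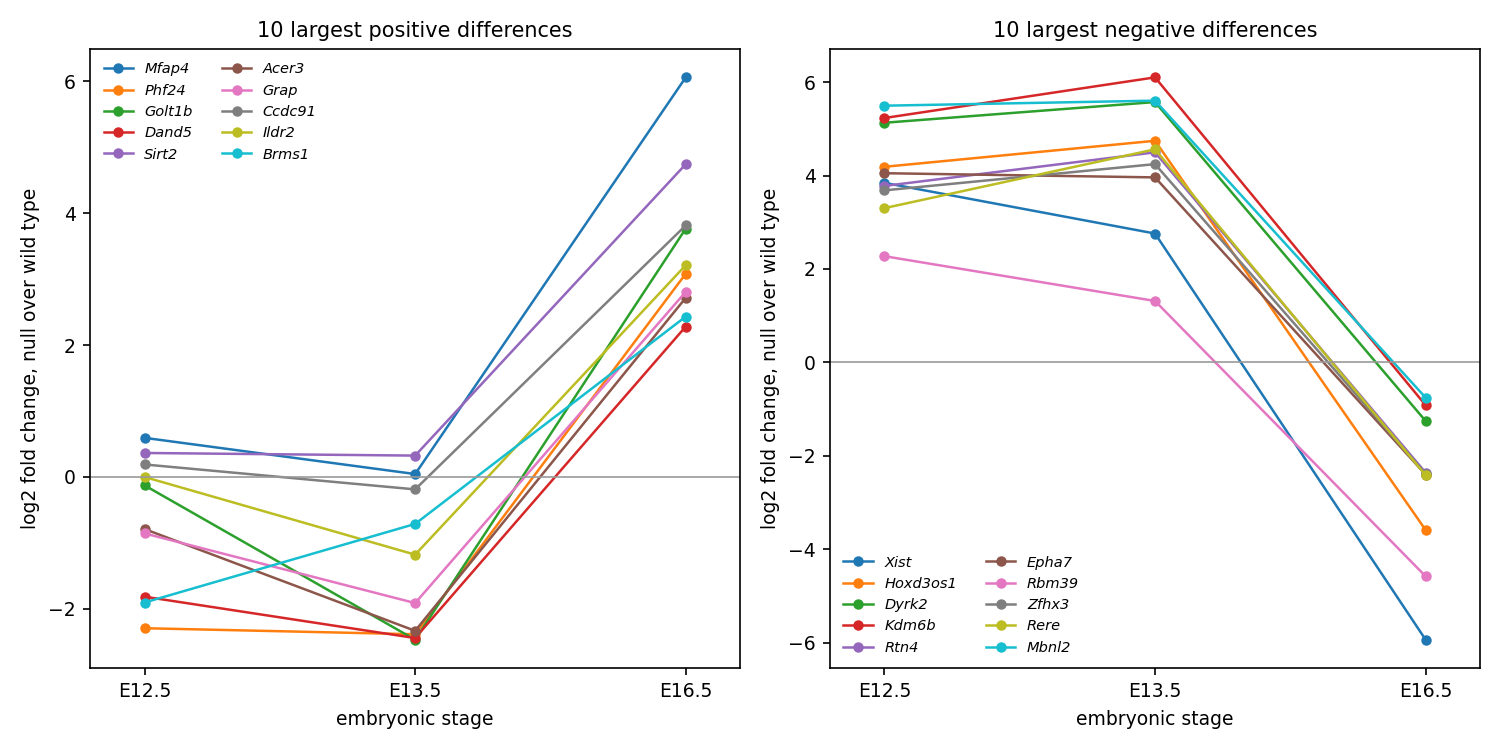
Log2 null over wild type by stage for the 10 genes with the largest positive (left) and the 10 with the largest negative (right) called difference between E16.5 and the earlier stages, each line 1 gene. On the left Mfap4 is near 0 at E12.5 and E13.5 and at 6.06 at E16.5, and on the right all 10 genes are above 0 at the earlier stages and below 0 at E16.5.

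Genes that change with maturation in wild type kidneys were picked from wild type adult against wild type E12.5 and E13.5 kidneys, at 4-fold or more, a comparison without any E16.5 sample. There were 1295 genes (9.17%) at least 4-fold higher in the adult and 1209 (8.56%) at least 4-fold lower. Of the adult-high genes, 294 (22.7%) were higher and 112 (8.65%) lower in null than in wild type kidneys at E16.5, with a median of 0.21, against 20.8% and 15.1% over all genes. Of the adult-low genes, 224 (18.5%) were higher and 265 (21.9%) lower, with a median of -0.02. The shares of higher genes were close to the background, while the share of lower genes was below it for adult-high genes and above it for adult-low genes. The adult-low shares differed by design: on 430A 17.4% were higher and 25.1% lower, against 23.8% and 16.4% over all 430A genes, and on 430B 21.3% were higher and 13.7% lower, against 15.8% and 12.97% over all 430B genes. The adult RNA was prepared from 100 ng. For adult replicate 2, the run records name the other design as chip type on both its 430A and its 430B array. Its values were used as deposited.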

How the data were processed

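The deposited values were intensity signals per probe set on a linear scale from 28 arrays, made with MAS5 per the submitters' processing notes; its version and scaling target are not given in the sources used here. The authors' values were not renormalized. Signals under the 20th percentile of their design (86.1 on 430A, 148.1 on 430B) were set to it, log2 was taken, and probe sets above the design's median in at least 1 group were kept. limma 3.58.1 (R 4.3.3) was fitted on all 7 groups of 2 samples per design, with a mean-variance trend and 7 residual degrees of freedom, with Benjamini-Hochberg adjustment across both designs. The fit was tested on simulated data. Genes were read by 430A before 430B and then by the brightest probe set. The text names genes by rank: the 15 largest changes each way, 12 genes each way with agreeing probe sets, up to 4 called genes each way per list, 10 differences each way between stages, and the targeted genes; other list members are given as values. The members and lists were chosen with earlier results of these data known. Same-numbered samples correlated by 0.18 (430A) and 0.05 (430B) after group means and share only a number.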

Additional observations from a re-analysis of the deposited data

Results flagged for a closer look

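The null effect at E16.5 differed from the mean null effect at E12.5 and E13.5 for 6218 probe sets in limma's test of the difference itself. The 20 genes with the largest such differences were singled out; each value is the log2 null effect at E16.5 minus the mean of the null effects at the earlier stages. Mfap4 differed by 5.74, and the other positive differences were Phf24 (5.42), Golt1b (5.06), Dand5 (4.41), Sirt2 (4.40), Acer3 (4.28), Grap (4.19), Ccdc91 (3.82), Ildr2 (3.80) and Brms1 (3.74). Xist differed by -9.24, with null effects of 3.84 at E12.5, 2.76 at E13.5 and -5.94 at E16.5, and the labels give no sex. The other negative differences were Hoxd3os1 (-8.05), Dyrk2 (-6.61), Kdm6b (-6.58), Rtn4 (-6.50), Epha7 (-6.41), Rbm39 (-6.37), Zfhx3 (-6.35), Rere (-6.35) and Mbnl2 (-6.30). The call for Brms1 was lost without wild type E16.5 replicate 1 (adjusted p = 0.0538) and that for Ccdc91 without null E16.5 replicate 1 (adjusted p = 0.0505). Other probe sets of 4 of these genes were called lower at E16.5, with log2 differences of -1.06 for Golt1b, -1.57 for Acer3, -1.07 for Ccdc91 and -0.99 for Brms1. The scanner and scan days of the null E16.5 arrays were shared with no other array, so they cannot be told apart from genotype and stage in these differences.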

How the results depend on the processing

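Every alternative changed 1 choice at a time. Of 202 named genes, 117 kept their call under every setting tried for them, and 394 of 3610 gene and setting pairs lost it, with no reversal. By setting, 53, 58, 59 and 47 genes lost the call without null 1, null 2, wild type 1 and wild type 2, and 42 with the actin ratio as a covariate. The number of lower probe sets was 3880 after median centring. For the difference from the earlier stages, median centring gave 4623 higher, and the actin covariate gave 4085 called, 1388 higher and 2697 lower. Leaving out 1 replicate gave 6098 to 7580 called at E16.5, with 2942 to 3656 higher and 3076 to 3924 lower, and 3195 to 6403 called for the difference, with 896 to 2284 higher and 2299 to 4119 lower. Over the gene lists it gave 88 to 101 higher and 32 to 39 lower, where the full fit gave 145 and 59. With the replicate number as a block, 10270 probe sets were called (4675 higher, 5595 lower), 5722 for the difference, and 140 list genes higher and 57 lower; the numbers share no embryo, so this block has no pairing behind it. Scan day as a random block gave 8842 calls, quantile normalization 8986, and the 4 E16.5 samples alone 9694. Hoxa11 was called under every setting, between -3.23 and -3.18 with 1 replicate left out and between -3.33 (actin covariate) and -2.78 (an offset in place of the floor) otherwise. With 2 embryos a group, an unstated strain in the null embryos and a scanner and scan day that follow genotype, the spread between replicates does not cover differences between the groups that are not genotype. Signals near the floor give bounds only.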

Other observations

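Genes were also grouped by the letters their symbols start with, a rule chosen after the values were seen, for the 60 groups with 20 or more genes measured; 20.8% of all genes were higher and 15.1% lower. Collagen chains (Col) had 21 higher and 2 lower of 35, with median null effects of 1.34 at E12.5, 1.36 at E13.5 and 1.25 at E16.5. Genes of the cytoskeleton and membrane traffic differed by group. The myosins (Myo) had 10 higher and 0 lower of 20 (median 1.05), the Rab-regulating Tbc genes 12 and 1 of 29 (median 0.63) and the vacuolar sorting Vps genes 16 and 2 of 33 (median 0.77). Rab genes themselves had 8 higher and 10 lower of 65 (median -0.06) and Sec genes 5 and 4 of 24 (median -0.29). Snx genes had 7 and 5 of 28 (median 0.15) and Kif genes 8 and 4 of 31 (median 0.34).

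Genes of ribosomes and respiration had medians on the other side of 0. Large ribosomal subunit genes (Rpl) had 0 higher and 8 lower of 22 (median -0.56), and their mitochondrial counterparts (Mrpl) 3 and 14 of 47 (median -0.33). Small cytosolic subunit genes (Rps) had 2 and 5 of 27 (median -0.17), with a share of lower genes, 18.5%, near that of all genes. Small mitochondrial subunit genes (Mrps) had 1 and 10 of 29, and cytochrome oxidase genes (Cox) 2 and 6 of 22. The Mrps and Cox medians were -0.26 and -0.34. These medians kept their sign after each design's median was subtracted. The median null effects at E12.5 and E13.5 were -0.59 and -1.004 for Rpl and -0.83 and -0.83 for Mrpl. They were -0.60 and -1.14 for Rps, -0.90 and -0.71 for Mrps, and -0.55 and -0.64 for Cox. Each group was thus below 0 at every stage, with the E16.5 median closest to 0, a difference that was not tested. The signals of 18S and B1 were also lower in the null E16.5 arrays, and the part of this in the groups was not tested.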
